A study of Arabidopsis thaliana with 12 samples.

Results

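The direct contrast of the peroxisomal protease mutant lon2-8 with the autophagy mutant atg2-4 is described here, gene by gene, from 6 of the 12 libraries of the study. Its members are the 3 libraries whose columns are named for lon2-8 and the 3 whose columns are named for atg2-4, with no wild-type library in the contrast itself. Both lines are Arabidopsis thaliana of the Col-0 ecotype, each with a single mutant allele, and RNA came from entire seedlings grown in continuous light on plant nutrient medium and no other treatment is named. The age is 6 days in the design text and 8 days in the growth protocol, and the conflict could not be settled. The labels do not describe the lesion of either allele, and each mutant is represented by 1 allele. The other 6 libraries, 3 of wild-type Col-0 and 3 of the lon2-8 atg2-4 double mutant, are used for the estimate of the spread and for levels set beside the contrast. The sample titles and genotype tags of the 6 single-mutant samples name opposite mutants, so every direction follows the authors' column names. The level of LON2 in the named columns is set beside those names below.

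LON2 is an ATP-dependent protease of the peroxisome matrix, the compartment where plants break down fatty acids, run the glyoxylate cycle and the middle steps of photorespiration, and destroy hydrogen peroxide. Autophagy encloses cytoplasm and organelles in a double membrane and carries them to the vacuole for breakdown, and peroxisomes are among its cargo in leaves and seedlings. ATG2 is a lipid transfer protein that the growing autophagosome membrane needs. The contrast sets 1 lesion of peroxisome upkeep against 1 of organelle turnover, without a wild type in between.

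The deposited table holds FPKM, a fragment count scaled to transcript length and library size, for 26093 genes. The 12 libraries held between 14481170 and 18690658 fragments, as recovered from the steps of the values, and the replicates of a genotype correlated at r = 0.994 or more across genes. Differences are given as lon2-8 minus atg2-4 on the log2(FPKM + 1) scale with their standard error, so a positive value is higher in lon2-8, and the scale understates differences of genes at low FPKM. A gene is called where the limma adjusted p was under 0.05 over the 20662 genes tested, which had at least 1 FPKM in at least 3 libraries. FPKM levels are given for each library or as mean ± SD over 3 libraries. Counts of genes at a fold threshold use differences on the log2(FPKM + 1) scale. Fold values printed for single genes are ratios of mean FPKM.

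LON2 (AT5G47040) was at 12.05, 11.1 and 11.7 FPKM in lon2-8 and at 23.2, 21.9 and 21.7 in atg2-4. The groups did not overlap, and lon2-8 was lower (−0.88 ± 0.064 log2, adjusted p = 1.29e-07), though the transcript was still present. ATG2 (AT3G19190) was at 6.66, 5.98 and 6.31 FPKM in atg2-4 and at 7.96, 7.79 and 7.0 in lon2-8. Again the groups did not overlap, and the atg2-4 libraries were the low ones, by a small amount (0.23 ± 0.061, adjusted p = 0.00710). Each targeted gene was thus the lower in the columns that carry its name, and neither transcript was lost. The ATG2 difference is below the median size of the called differences (0.35), so by itself it says little about the column names. In Col-0 LON2 was at 25.9 ± 1.6 FPKM, and in the double mutant at 4.78 ± 0.50, below lon2-8. LON2 was thus low in both groups whose columns are named for a lon2-8 genotype, without overlap with Col-0 or atg2-4. ATG2 was at 7.71 ± 0.13 FPKM in Col-0 and 6.59 ± 0.43 in the double mutant. Of the 20 tested genes nearest LON2 along its chromosome, 10 to each side, 3 were higher in lon2-8 and 8 higher in atg2-4 (55.0%), and of the 20 nearest ATG2 6 and 4, against 47.1% called among all genes tested. Near LON2, AT5G46890 (1.66), AT5G46900 (1.92), AT5G46950 (−1.6) and AT5G46960 (−1.95) differed by at least 2-fold, a size at which 3.91% of all genes tested were called. Near ATG2 the largest difference was 0.42 in size. Whether other sequence differences travel with either allele was not tested.

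The mutants differed in 9732 of the 20662 genes tested, which is 47.1%. Of these, 4545 were higher in lon2-8 (22.0% of the genes tested) and 5187 were higher in atg2-4 (25.1%). Most differences were small, with a median size of 0.35 among the called genes and a median difference of −0.0047 over all genes tested. The large ones were one-sided. Of 808 genes that differed by at least 2-fold (3.91%), 645 were higher in atg2-4 (3.12%) and 163 in lon2-8 (0.789%). At 4-fold or more, 153 genes were higher in atg2-4 and 16 in lon2-8. At 16-fold or more, 25 were higher in atg2-4 and 1 in lon2-8. These counts are on the log2(FPKM + 1) scale and miss genes that pass 16-fold only as a ratio of mean FPKM. Among the genes named for their size or their Col-0 level these were LCR85, CYP81D11, AT1G73120 and AT3G59930, higher in lon2-8. In the other direction they were ACD6, PCC1 and AT2G06355. Some ratios rest on a lower group near the floor. LCR85 was at 0.708, 0 and 0.261 FPKM in atg2-4. AT2G06355 was at 0, 0.273 and 0 FPKM in lon2-8, against a mean of only 3.31 in atg2-4. The 3 libraries of one mutant lay wholly beyond the 3 of the other in 11129 of the genes tested (53.9%). Centring each library on its median shifted the median difference by 0.054 and turned the balance of the small differences, from 46.7% of the called genes higher in lon2-8 to 58.1%. The 2-fold counts stayed one-sided under that scaling, with 583 genes higher in atg2-4 and 196 in lon2-8. In RNA of whole seedlings, fewer cells of a type and less RNA per cell cannot be told apart.

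The genes that separated the mutants most were at low levels in lon2-8 and abundant in atg2-4. The 15 named in each direction were chosen among called genes without overlap between the groups. Their separation and adjusted p under 0.05 therefore follow from that choice. The germin-like gene GLP9 (AT4G14630), of a family of cell wall proteins, was at 7.02, 6.93 and 7.75 FPKM in lon2-8 and at 668, 747 and 761 in atg2-4. The proline-rich extensin-like gene AT1G26240, of another family of wall proteins, was at 5.22, 3.4 and 5.38 FPKM against 637, 666 and 631. All atg2-4 libraries of these genes lay far above all lon2-8 libraries (−6.46 ± 0.097, adjusted p = 2.28e-14, and −6.85 ± 0.11, adjusted p = 4.47e-14). The cupin gene AT5G38910, of the superfamily to which germin-like proteins belong, was at 0.0653, 0 and 0.0566 FPKM in lon2-8 and at 119, 136 and 139 in atg2-4. AT1G26390, a berberine bridge enzyme-like oxidase gene, was at 3.2, 3.63 and 3.03 against 335, 361 and 364. In these genes as well no lon2-8 library came near the atg2-4 range (−6.99 ± 0.064 and −6.37 ± 0.059). Col-0 means were 2.94 FPKM for GLP9, 0.53 for AT1G26240, 0.53 for AT1G26390 and 0 for AT5G38910. For GLP9, AT1G26240 and AT1G26390 the lon2-8 libraries thus also lay above all Col-0 libraries, though far below atg2-4. The remaining 11 of the 15 largest were AT1G08763, AT3G55790, AT1G58320 of the PLAC8 family, the lectin receptor kinase genes AT2G29220 and AT2G29250, AT1G29100 and AT5G26690, whose products hold a heavy-metal domain, CYP82C2 of indolic defence, the ATPase gene AT3G28510, and AT1G53610 and AT1G53625. Their means were 0.0422 to 6.43 FPKM in lon2-8 and 41.3 to 192 in atg2-4. AT1G08763 is annotated as an RNA of no further class, as is AT2G06355, and whether counting used strand is not known here, so reads of an overlapping partner cannot be told apart.

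Of the 15 genes that were highest in lon2-8 relative to atg2-4, 3 encode defensin-like proteins, small secreted peptides rich in cysteine. AT5G33355 was at 36.8, 39.4 and 39.4 FPKM in lon2-8 and at 0.859, 0.696 and 0.713 in atg2-4, and AT3G59930 at 62.8, 58.96 and 68.02 against 3.75, 4.09 and 3.26. By the choice of these genes, every lon2-8 library was above every atg2-4 library (4.49 ± 0.057, adjusted p = 5.30e-15, and 3.78 ± 0.075, adjusted p = 3.80e-13). LCR85 was at 7.76 ± 0.73 and 0.323 ± 0.36 FPKM. In Col-0 the level of all 3 was nearer that of lon2-8 than that of atg2-4, with means of 26.1, 43.8 and 5.9 FPKM. AT1G73120, which the annotation places in the F-box and leucine-rich repeat superfamily, had another pattern. It was at 58.8, 63.2 and 61.7 FPKM in lon2-8, 2.63, 3.74 and 3.29 in atg2-4 and 4.17, 3.36 and 3.27 in Col-0, so that lon2-8 alone was high (3.89 ± 0.093, adjusted p = 2.30e-12). ELIP2, UGT74E2 and the endoglucanase gene GH9B15 were also high in lon2-8 alone, and GH9B15 was at 7.76 FPKM against 0.747 in atg2-4 and 0.969 in Col-0. The cytochrome P450 gene CYP81D11, the importin gene IMPA-1, the arabinogalactan protein gene AGP30, the acyl-carrier-protein desaturase gene AT3G02620 and the galactosidase gene BGAL8 were nearer to Col-0 in lon2-8 than in atg2-4, and low in atg2-4. IMPA-1 for instance was at 26.2, 26.6 and 26.1 FPKM in lon2-8, 3.29, 3.25 and 3.38 in atg2-4 and 27.7, 28.1 and 26.3 in Col-0 (2.66 ± 0.049, adjusted p = 1.89e-13). CP1, FSD1 and FER1 complete the 15 and are given with their groups.

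**Figure D1:**
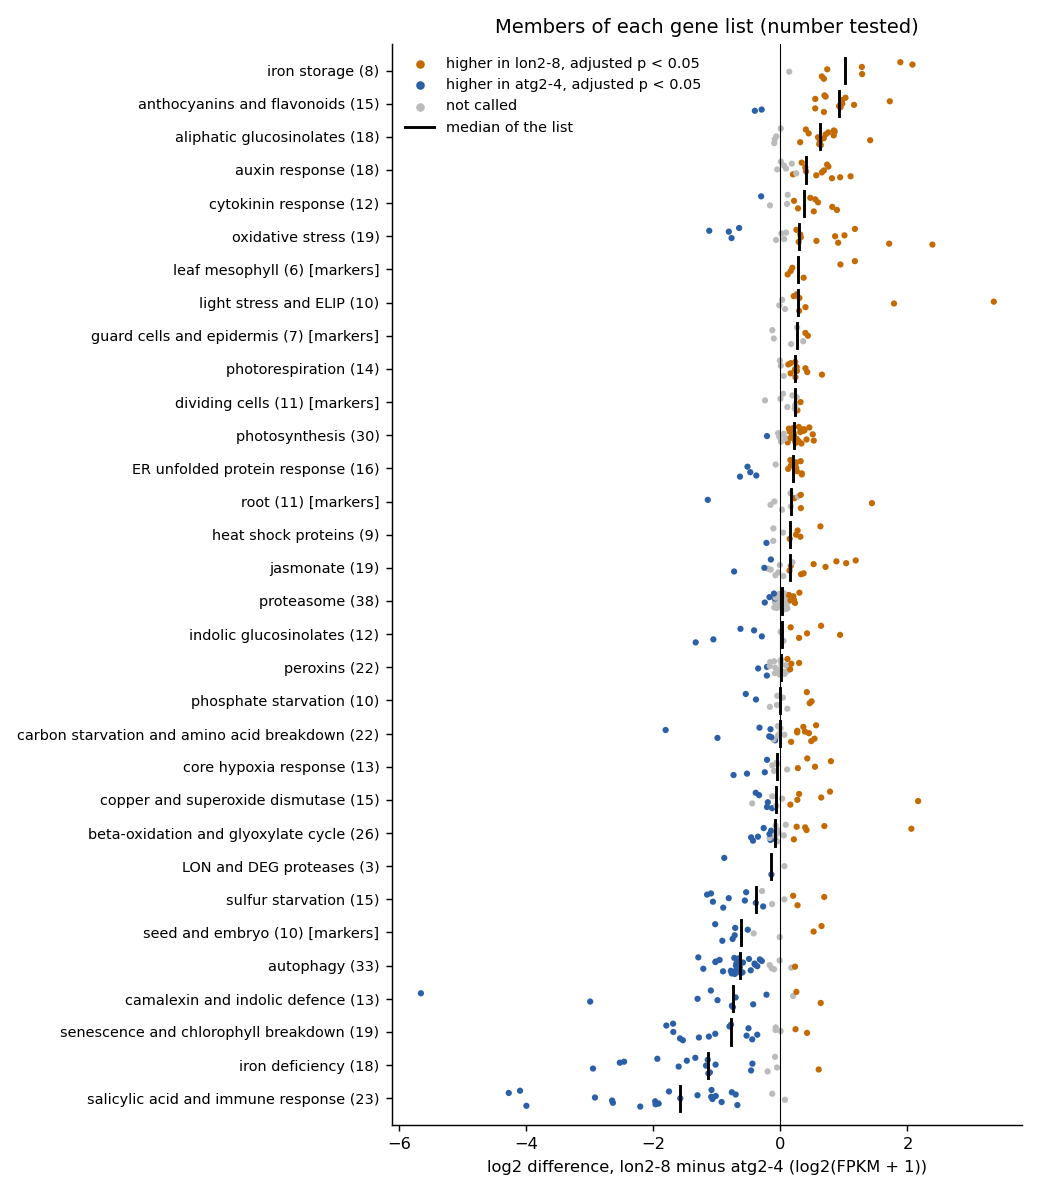
Difference between lon2-8 and atg2-4 (log2(FPKM + 1)) of each tested member of 32 gene lists, ordered by the median of the list (black bar), with called members in orange or blue. Iron storage has the highest median (1.01) and the salicylic acid and immune response the lowest (−1.58), and the iron deficiency list lies near the bottom at −1.14.

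Iron genes split the mutants in opposite directions by role. Plants short of iron switch on a cascade in which the partner transcription factors BHLH38, BHLH39, BHLH100 and BHLH101 act with FIT to raise iron uptake by the reductase FRO2 and the transporter IRT1, while excess iron is stored in plastid ferritins. Of 18 iron deficiency genes tested, 14 were higher in atg2-4 and 1 in lon2-8 (83.3% called, against 47.1% of all genes tested). Here and below, the lists were chosen with earlier results of these data known, so such shares are a description and no test of enrichment. BHLH100 was at 5.22, 4.91 and 5.11 FPKM in lon2-8 and at 47.8, 46.3 and 43.9 in atg2-4. BHLH38 was at 5.58, 5.34 and 4.83 against 35.4, 36.1 and 33.6, and BHLH39 at 3.31, 2.88 and 3.21 against 21.6, 21.8 and 21.8. The groups did not overlap for these regulators, and the atg2-4 means were 9.06-fold, 6.67-fold and 6.94-fold those of lon2-8 (−2.95 ± 0.047, −2.53 ± 0.065 and −2.46 ± 0.063 log2, adjusted p from limma at most 4.60e-12). BHLH101, the fourth of the clade, was 4.26-fold higher in atg2-4 (−1.94 ± 0.071). OPT3, which loads iron into the phloem, was at 38.7, 39.6 and 37.3 FPKM in lon2-8 and 108, 110.3 and 107 in atg2-4 (−1.47 ± 0.036, adjusted p = 3.00e-12). The list also held IRT1 (−1.14), FRO2 (−1.13), the coumarin synthesis gene F6H1 (−1.6), the vacuolar nicotianamine transporter gene ZIF1 (−1.34), the ubiquitin ligase gene BTS (−1.17) and the repressor gene PYE (−1.02) among those higher in atg2-4.

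FIT itself ran the other way. It was at 8.66, 8.19 and 8.09 FPKM in lon2-8 and 5.23, 5.12 and 5.03 in atg2-4, and the groups did not overlap (0.6 ± 0.073, adjusted p = 1.66e-05). MYB72, a regulator of coumarin secretion, was not called (−0.2 ± 0.15, adjusted p = 0.304). Of 8 iron storage genes tested, 7 were higher in lon2-8 and none in atg2-4 (87.5% called). The ferritin gene FER1 was at 66.1, 64.3 and 66.3 FPKM in lon2-8 and at 13.6, 14.5 and 16.3 in atg2-4, and FER4 at 12.9, 12.7 and 12.9 against 5.49, 4.42 and 4.18. The iron-sulfur protein gene NEET was at 17.64, 18.1 and 20.2 against 4.12, 4.22 and 4.58. In all of these each lon2-8 library was above each atg2-4 library (2.08 ± 0.057, 1.29 ± 0.092 and 1.89 ± 0.082). FER3 (0.74), the vacuolar iron transporter-like genes VTL1 (0.68) and VTL2 (0.65), and the metal-nicotianamine transporter gene YSL1 (1.28) were also higher in lon2-8, and VTL5 was not called (−0.081 to 0.36 as 95% interval). Col-0 lay between the mutants for the 4 clade regulators, OPT3, IRT1, FER1, FER4 and NEET. The Col-0 libraries held BHLH38 at 10.1, 9.54 and 9.58 FPKM, for instance, and FER1 at 35.8, 33.5 and 36.6.

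**Figure D2:**
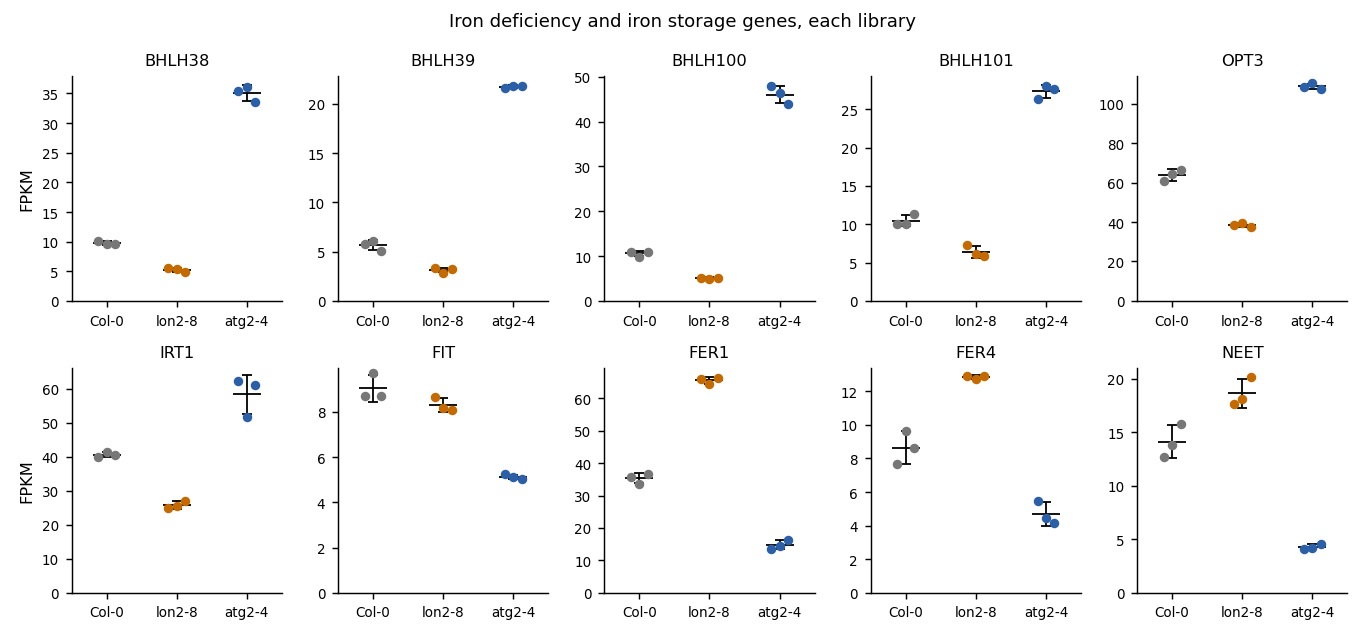
FPKM of 10 iron genes in each Col-0, lon2-8 and atg2-4 library (points), with mean and SD over 3 libraries (bars), each panel on its own linear axis from 0. The 4 BHLH genes, OPT3 and IRT1 are highest in atg2-4 and lowest in lon2-8, while FER1, FER4 and NEET have the reverse order, and FIT is lowest in atg2-4.

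Among 15 genes of copper handling and superoxide dismutases, which convert superoxide to hydrogen peroxide, 6 were higher in lon2-8 and 5 in atg2-4 (73.3% called, median −0.064). The iron superoxide dismutase gene FSD1 was at 31.3, 31.7 and 30.3 FPKM in lon2-8 and 5.59, 6.72 and 6.17 in atg2-4 (2.17 ± 0.057, adjusted p = 5.66e-12). FSD2 and FSD3, of the same metal class, were also higher in lon2-8 (0.29 and 0.64). Of the copper-zinc enzymes, CSD1 and the copper chaperone gene CCS were slightly higher in atg2-4 (−0.13 and −0.21), CSD3 was slightly higher in lon2-8 (0.27), and CSD2 was at 237 and 247 FPKM without a call (adjusted p = 0.213). The copper transporter gene COPT1 was higher in atg2-4 (−0.39), and the copper regulator gene SPL7 was at 8.35 and 8.18 FPKM (adjusted p = 0.654).

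Genes that handle hydrogen peroxide also separated the mutants. CAT2, which encodes the main leaf catalase of peroxisomes, was at 513, 517 and 514 FPKM in lon2-8 and at 235, 228 and 219.7 in atg2-4, with Col-0 in between at 359.5, 357 and 372. APX1, the cytosolic ascorbate peroxidase gene, was at 265, 269 and 284 in lon2-8, 76.5, 85.04 and 86.3 in atg2-4 and 132, 135 and 135 in Col-0. Both were higher in lon2-8 with no overlap (2.26-fold and 3.3-fold; 1.17 ± 0.030, adjusted p = 4.12e-12, and 1.71 ± 0.045, adjusted p = 5.59e-12). The catalase genes CAT1 and CAT3 were not called (0.059 and −0.068, adjusted p = 0.370 and adjusted p = 0.248). UGT74E2, an auxin glucosyltransferase gene known to respond to hydrogen peroxide, was at 7.66, 6.83 and 10.5 FPKM in lon2-8 and 0.487, 0.79 and 1.02 in atg2-4, with the lon2-8 libraries all higher and widely spread (2.39 ± 0.15, adjusted p = 2.35e-08). Of the 19 oxidative stress genes tested, 11 were higher in lon2-8 and 4 in atg2-4 (78.9% called, median 0.29). The glutathione transferase genes GSTU19 (0.86), GSTU1 (1.01) and GSTU24 (0.91) and the dehydroascorbate reductase gene DHAR1 (0.57) were on the lon2-8 side. The zinc finger genes ZAT10 (−0.77) and ZAT12 (−0.65), the singlet oxygen marker BAP1 (−1.12) and the secreted peroxidase gene PRXCB (−0.81) were on the atg2-4 side.

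The glyoxylate cycle, which turns the products of fatty acid breakdown into sugar precursors, was represented by its 2 particular enzymes, of which 1 was called. ICL, isocitrate lyase, was at 45.95, 47.4 and 45.7 FPKM in lon2-8 and at 43.7, 53.8 and 51.3 in atg2-4. The ranges overlapped and the difference was not called (−0.090 ± 0.091, adjusted p = 0.446, 95% interval −0.29 to 0.11), and both mutants lay above the Col-0 libraries at 10.99, 9.27 and 7.9. MLS, malate synthase, was at 10.7, 9.98 and 11.3 FPKM in lon2-8, 2.05, 1.9 and 1.45 in atg2-4 and 1.99, 1.94 and 1.82 in Col-0. It was 5.92-fold higher in lon2-8 than in atg2-4 (2.06 ± 0.093, adjusted p = 1.12e-09), and the atg2-4 and Col-0 libraries overlapped. In the double mutant ICL was at 81.5 ± 0.63 FPKM and MLS at 2.09 ± 0.29.

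Of the 26 genes of β-oxidation and the glyoxylate cycle tested, 6 were higher in lon2-8 and 8 in atg2-4, with a median of −0.078 (53.8% called), and centring the libraries turned the balance to 7 and 6. The peroxisomal malate dehydrogenase genes PMDH2 (0.39 ± 0.031) and PMDH1 (0.21), the thiolase gene KAT5 (0.69) and the gluconeogenic carboxykinase gene PCK1 (0.41) were higher in lon2-8. The peroxisomal citrate synthase gene CSY3 was at 17.04, 18.6 and 17.58 FPKM in lon2-8 and 23.6, 25.3 and 25.4 in atg2-4 (−0.46 ± 0.041, adjusted p = 9.79e-07). The isomerase gene ECI1 (−0.43), the acyl-activating gene LACS6 (−0.35) and the oil body lipase gene SDP1 (−0.26) were likewise higher in atg2-4, whereas LACS7, the partner of LACS6, was higher in lon2-8 (0.26). The multifunctional gene MFP2 and the fatty acid importer gene PXA1 were not called (0.054 and −0.059).

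Peroxins build peroxisomes and import their proteins. Of 22 tested, 4 were higher in lon2-8 and 3 in atg2-4 (31.8%, below the share of all genes), with a median of 0.0068, and leaving out lon2-8 library 1 or 3 changed the counts to 1 and 3, and leaving out atg2-4 library 1 or 3 to 2 and 3. PEX11E, of peroxisome division, was higher in lon2-8 (0.29 ± 0.045) and PEX19A, a receptor for membrane proteins, higher in atg2-4 (−0.35 ± 0.057). The import receptor gene PEX5 was at 11.2 and 11.1 FPKM (adjusted p = 0.837). Of the 3 LON and DEG protease genes tested, LON2 and DEG15 were higher in atg2-4. The DEG15 difference (−0.14) lost its call, which left LON2 alone, when any lon2-8 library or atg2-4 library 2 or 3 was left out, with centred libraries and with only the 6 single-mutant libraries. LON1, whose product serves mitochondria, was not called (0.063, adjusted p = 0.349).

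**Figure D3:**
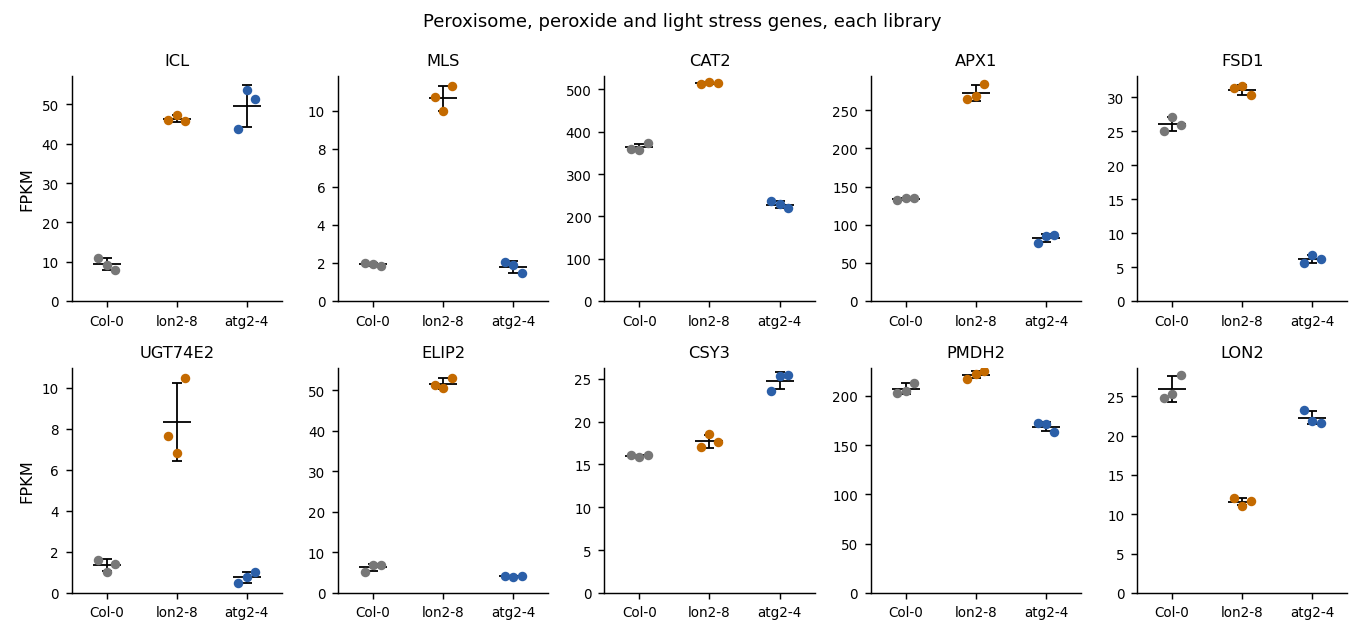
FPKM of 10 genes of peroxisomes, peroxide handling and light stress in each Col-0, lon2-8 and atg2-4 library (points), with mean and SD over 3 libraries (bars), each panel on its own linear axis from 0. ICL is high in both mutants, MLS, UGT74E2 and ELIP2 are high in lon2-8 alone, CAT2 and APX1 rank lon2-8, Col-0, atg2-4, and LON2 is lowest in lon2-8.

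Salicylic acid and immune genes were higher in atg2-4 almost throughout. Of 23 tested, 21 were higher in atg2-4 and none in lon2-8 (91.3% called), with a median of −1.58 and with 17 of them by at least 2-fold. Without atg2-4 library 3, and also with libraries centred on their median, 1 member was higher in lon2-8. ICS1, whose product makes the salicylic acid precursor in plastids, was at 3.97, 3.57 and 4.02 FPKM in lon2-8 and 17.9, 17.1 and 16.9 in atg2-4. PBS3, which joins that precursor to glutamate, was at 0.445, 0.738 and 0.618 against 28.4, 29.5 and 32.01. CBP60G, a transcription factor that activates both, was at 2.82, 3.12 and 2.59 against 64.7, 65.7 and 63.9. None of these groups overlapped, and the atg2-4 libraries were the high ones (−1.92 ± 0.063, −4.28 ± 0.097 and −4.1 ± 0.051). The genes of the related immune signal pipecolic acid followed, with FMO1 at 1.22 ± 0.18 and 34.5 ± 0.35 FPKM and ALD1 at 0.415 ± 0.043 and 7.81 ± 0.31. The receptor partners EDS1 (−1.07), PAD4 (−1.58) and SAG101 (−0.77) and the salicylic acid receptors NPR1 (−0.68), NPR3 (−1.08) and NPR4 (−1.02) were also higher in atg2-4. The late markers PR1 and PR2 were low in both mutants, at 1.78 and 1.49 FPKM in lon2-8 and 4.29 and 4.28 in atg2-4. The exporter gene EDS5 was not called (−0.13 ± 0.068, adjusted p = 0.145), nor was UGT76B1, which glycosylates salicylic acid (0.072 ± 0.046, adjusted p = 0.221).

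In the list of camalexin and indolic defence, 10 of 13 genes were higher in atg2-4 and 2 in lon2-8 (92.3% called, median −0.75). CYP82C2, which hydroxylates indole carbonyl nitriles, was at 0.436, 0.417 and 0.856 FPKM in lon2-8 and 74.1, 76.4 and 83.1 in atg2-4, and CYP71A12, which acts earlier in the same branch, at 11.2, 11.5 and 14.3 against 109, 103 and 102. The separation was complete in both (−5.66 ± 0.092 and −3.0 ± 0.073). The regulator gene WRKY33 (−1.3), the myrosinase gene PEN2 (−0.71) and the exporter gene PEN3 (−0.76) were also higher in atg2-4. CYP79B3 and CYP79B2, which open the pathway from tryptophan, were the ones higher in lon2-8 (0.63 and 0.25), and PAD3 of the last camalexin step was at 2.42 and 1.97 FPKM without a call (adjusted p = 0.135).

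Autophagy genes themselves were higher in the autophagy mutant. Of 33 tested, 27 were higher in atg2-4, and ATG2 alone was higher in lon2-8 (84.8% called, median −0.64). NBR1, the receptor for ubiquitinated cargo, was at 59.8, 59.8 and 61.3 FPKM in lon2-8 and 120.3, 126 and 123 in atg2-4. ATG8H, of the family of membrane-anchored tags of the autophagosome, was at 19.6, 21.5 and 19.9 against 46.1, 51.3 and 48.3. ATG101, of the initiating kinase complex, was at 10.6, 12.1 and 10.5 against 28.8, 30.9 and 26.2. In each the atg2-4 libraries lay above all lon2-8 and Col-0 libraries (−1.02 ± 0.030, −1.21 ± 0.061 and −1.29 ± 0.073). Members of several steps were among them, from the kinase scaffold ATG11 (−0.96) and the lipid kinase VPS34 (−0.6) to the membrane protein ATG9 (−0.78), the conjugation genes ATG3 (−0.73) and ATG7 (−0.49), and ATG8A (−1.02), ATG8D (−0.9) and ATG8E (−0.69). ATG10, ATG12B, ATG18B, ATG8G and ATI1 were not called, with differences of −0.17 to 0.17.

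**Figure D4:**
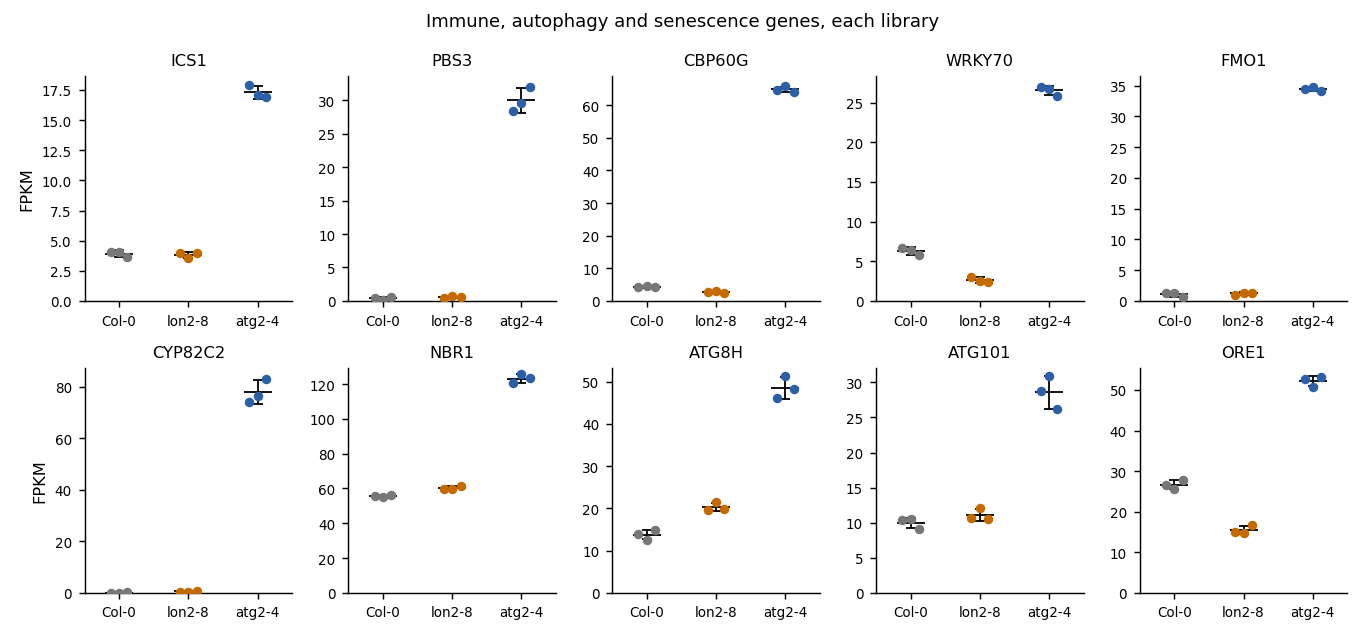
FPKM of 10 genes of immunity, indolic defence, autophagy and senescence in each Col-0, lon2-8 and atg2-4 library (points), with mean and SD over 3 libraries (bars), each panel on its own linear axis from 0. All 10 are highest in atg2-4, and for WRKY70 and ORE1 the lon2-8 libraries lie below those of Col-0.

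Of 19 genes of senescence and chlorophyll breakdown, 14 were higher in atg2-4 and 2 in lon2-8 (84.2% called, median −0.78). ORE1, a master regulator of leaf senescence, was at 15.03, 14.8 and 16.7 FPKM in lon2-8, 52.7, 50.8 and 53.2 in atg2-4 and 26.5, 25.6 and 27.8 in Col-0, with no overlap between any of the 3 genotypes (−1.69 ± 0.046, adjusted p = 7.41e-12). NYE1, which starts chlorophyll breakdown by removing its magnesium, was at 9.13, 9.63 and 8.14 against 29.97, 31.7 and 31.5 (−1.69 ± 0.059). NAP, another senescence regulator, was at 2.63 ± 0.23 FPKM in lon2-8 and 9.87 ± 0.69 in atg2-4, with Col-0 nearer atg2-4 at 8.27 ± 0.26. The cytosolic glutamine synthetase genes GLN1;1 (−0.78) and GLN1;4 (−1.8), which serve nitrogen export from ageing leaves, and the chlorophyll breakdown genes PPH (−0.8) and PAO (−0.53) were higher in atg2-4. NYC1 and NOL, the chlorophyll b reductase genes, were the 2 higher in lon2-8 (0.42 and 0.24). SEN1 was not called (0.0041, adjusted p = 0.965).

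Genes of carbon starvation and amino acid breakdown had no common direction, with 9 of 22 higher in lon2-8 and 7 in atg2-4 (72.7% called, median −0.0063). The proline dehydrogenase gene PRODH1 (0.45), the raffinose metabolism gene DIN10 (0.36), the asparagine synthetase gene ASN1 (0.39) and the transaminase gene BCAT2 (0.49) were higher in lon2-8. The glucosidase gene DIN2 (−1.81) and the phosphomannose isomerase gene DIN9 (−0.99) were higher in atg2-4, and DIN2 was close to 0 in lon2-8 at 0.16 FPKM.

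The early light-induced protein genes, whose products bind free pigments when chloroplasts are under light stress, were high in lon2-8. ELIP2 was at 51.3, 50.5 and 53.04 FPKM in lon2-8, 4.24, 4.02 and 4.11 in atg2-4 and 5.23, 6.75 and 6.87 in Col-0. ELIP1 was at 22.6, 24.7 and 26.2 FPKM in lon2-8, 6.75, 5.46 and 6.96 in atg2-4 and 9.52, 10.3 and 9.42 in Col-0. For both genes, the lon2-8 libraries were above all atg2-4 and Col-0 libraries (3.36 ± 0.11, adjusted p = 3.14e-11, and 1.79 ± 0.079, adjusted p = 9.16e-10). Of the 10 light stress genes tested 7 were higher in lon2-8 and none in atg2-4 (70.0% called, median 0.28), the others by small amounts, as PSBS of heat dissipation (0.4) and NPQ1 and ZEP of the xanthophyll cycle (0.29 and 0.26).

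Photosynthesis genes were higher in lon2-8 in 23 of 30 cases and lower in 1, LHCB2.1 (−0.21), with 80.0% called and a median of 0.22. PSAF of photosystem I was at 1294 ± 34 FPKM in lon2-8 and 899 ± 37 in atg2-4 (0.53 ± 0.037, adjusted p = 1.01e-07), and the Calvin cycle gene GAPB at 585 ± 4.3 and 439.9 ± 15. The light-harvesting and Rubisco small subunit genes have close paralogs whose reads the authors' counting may have split, so single members such as LHCB2.1 are uncertain. Of 14 photorespiration genes, which recycle the by-product of oxygen fixation through chloroplast, peroxisome and mitochondrion, 11 were higher in lon2-8 and none in atg2-4 (78.6% called, median 0.23). The peroxisomal aminotransferase gene AGT was at 465, 462 and 476 FPKM in lon2-8 and 296, 304 and 290.4 in atg2-4 (0.65 ± 0.029, adjusted p = 8.80e-10). The glycolate oxidase genes GOX1 and GOX2, which release hydrogen peroxide in peroxisomes, differed by 0.23 and 0.26, and GLU1 was at equal means of 162 FPKM in lon2-8 and 162 in atg2-4 (adjusted p = 0.942).

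The leaf mesophyll markers moved with these lists. All 6 were higher in lon2-8, from LHCB1.1 (0.11) to CA1 (0.94) and CAT2, and their summed level was 13596 to 14337 FPKM in the lon2-8 libraries and 11408 to 12242 in atg2-4. CAT2, RCA, RBCS1A and LHCB1.1 stand in those lists as well. With only the 6 single-mutant libraries, with no trend, or without lon2-8 library 3 or atg2-4 library 3, 5 of the mesophyll markers were called. With no filter on low values 4 were. The part of the mesophyll in the photosynthesis, photorespiration and catalase results was not tested. Root markers were present in both mutants, and of 11 tested 4 were higher in lon2-8 and 1 in atg2-4 (45.5% called, near the 47.1% of all genes tested; median 0.16). Without lon2-8 library 2 or atg2-4 library 1, 2 were on the lon2-8 side, and without atg2-4 library 2 there were 2 on each side. PYK10, a glucosidase gene of root ER bodies, made up most of their summed level, at 1748, 1847 and 1723 FPKM in lon2-8 and 644, 647 and 665 in atg2-4 (1.44 ± 0.031, adjusted p = 7.71e-13), which took the sum to 2137 to 2303 FPKM against 1078 to 1151. The endodermal gene CASP1 and the nitrate transporter gene NRT2.1 were not called (−0.16 and 0.024), and IRT1, which is also an iron gene, was the root marker higher in atg2-4. Seed and embryo markers were near the floor, with 2 of 10 higher in lon2-8, 6 higher in atg2-4 (80.0% called, median −0.61), and sums of 12.6 to 21.3 against 19.4 to 24.98 FPKM. Of 11 markers of dividing cells 2 were higher in lon2-8 and none in atg2-4 (median 0.23, sums of 43.4 to 48.6 against 37.8 to 41.1 FPKM). The 2 called of 11 are a smaller share than the 47.1% of all genes tested, and 1 member was higher in atg2-4 without lon2-8 library 1 or atg2-4 library 1. Of 7 markers of guard cells and epidermis, PDF1 (0.39) and TMM (0.43) were higher in lon2-8 and none in atg2-4 (28.6% called, also below all genes; median 0.26). Without lon2-8 library 3, 4 of the 7 were higher in lon2-8, and without lon2-8 library 2, 1 was higher in atg2-4. With centred libraries both lists had 5 members higher in lon2-8. No marker list was at 0 as a whole in either mutant.

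Flavonoid and anthocyanin genes were higher in lon2-8 in 13 of 15 cases and higher in atg2-4 in 2 (100% called, median 0.92). CHS, chalcone synthase at the entry of the pathway, was at 220.2, 224 and 223 FPKM in lon2-8 and 104, 111 and 124 in atg2-4. FLS1, flavonol synthase, was at 43.7, 50.7 and 49.9 against 13.02, 13.7 and 14.8. DFR, of the anthocyanin branch, was at 8.55, 7.95 and 6.12 against 3.2, 2.81 and 3.52. The lon2-8 libraries were higher without overlap in each (0.97 ± 0.054, 1.72 ± 0.072 and 1.02 ± 0.12). The 2 on the atg2-4 side, PAL1 (−0.3) and C4H (−0.4), act upstream, in the general phenylpropanoid steps shared with lignin and other products.

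Aliphatic glucosinolate genes, of the defence compounds made from methionine, were higher in lon2-8 in 14 of 18 cases and in none in atg2-4 (77.8% called, median 0.62, and 1 higher in atg2-4 without atg2-4 library 2). Their summed level was 360 to 364 FPKM in lon2-8 and 229 to 247 in atg2-4, both below Col-0 at 405 to 428. IMD1 and MAM1 of methionine chain elongation were at 47.5 ± 2.1 and 14.6 ± 0.70 FPKM in lon2-8 and 25.8 ± 0.66 and 7.75 ± 1.1 in atg2-4 (0.85 ± 0.038 and 0.84 ± 0.080). The glutathione transferase gene GSTU20 was at 40.3, 43.9 and 41.2 FPKM in lon2-8 and 13.5, 16.5 and 15.3 in atg2-4 (1.41 ± 0.066, adjusted p = 1.57e-09). The regulator gene MYB29 was higher in lon2-8 (0.75) while its partner MYB28 was not called (0.0060, adjusted p = 0.941). The indolic branch, made from tryptophan, had 5 of 12 genes higher in each mutant (83.3% called, median 0.026). Its regulators went apart, with MYB51 at 10.3, 11.3 and 11.4 FPKM in lon2-8 and 30.5, 29.95 and 27.3 in atg2-4 (−1.33 ± 0.057), and MYB34 at 13.1, 13.6 and 13.2 in lon2-8 and 8.37, 7.57 and 8.54 in atg2-4 (0.64 ± 0.062). The methyltransferase genes did so as well, IGMT2 higher in atg2-4 (−1.06) and IGMT5 in lon2-8 (0.94).

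Sulfur starvation genes were higher in atg2-4 in 9 of 15 cases and in lon2-8 in 3 (80.0% called, median −0.39). LSU2 was at 5.16, 4.29 and 5.15 FPKM in lon2-8 and 12.1, 11.3 and 11.04 in atg2-4 (−1.09 ± 0.092), and the sulfate reduction genes APR1 (−0.56), APR2 (−0.27) and APR3 (−0.81) were on the same side, with Col-0 above both mutants at 15.8, 45.7, 95.5 and 57.2 FPKM. The sulfite reductase gene SIR was higher in lon2-8 (0.69 ± 0.029, adjusted p = 5.62e-10). Of 10 phosphate starvation genes 3 were higher in lon2-8 and 2 in atg2-4 (5 of 10 called, near the 47.1% of all genes tested; median −0.0053), the sulfolipid gene SQD2 at −0.55 and the phosphate sensor gene SPX1 at 0.42.

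Growth hormone genes were mostly higher in lon2-8. Of 18 auxin response genes 12 were higher in lon2-8 and none in atg2-4 (66.7% called, median 0.40). Their summed level was 298 to 304 FPKM in lon2-8, 222 to 227 in atg2-4 and 300 to 306 in Col-0. IAA3, a repressor that auxin induces, was at 34.6, 30.8 and 31.7 FPKM in lon2-8 and 20.14, 16.99 and 17.005 in atg2-4 (0.81 ± 0.062, adjusted p = 2.04e-07), and the conjugating enzyme gene GH3.3 at 4.32 ± 0.079 and 1.48 ± 0.064 (1.1). Of 12 cytokinin response genes 8 were higher in lon2-8 and 1 in atg2-4 (75.0% called, median 0.37), with the feedback regulator genes ARR7 (0.89), ARR4 (0.53) and ARR15 (0.82) in front. The 1 on the atg2-4 side, CKX4, lost its call without lon2-8 library 1 or 2 or atg2-4 library 1 or 2, and with centred libraries. ARR7 was at 34.1, 36.5 and 36.8 FPKM in lon2-8 and 20.5, 18.1 and 18.1 in atg2-4, and in Col-0 it was at 14.6, 17.4 and 17.5, below both mutants. Jasmonate genes were higher in lon2-8 in 9 of 19 cases and in atg2-4 in 3 (63.2% called, against 47.1% of all genes tested). The median was 0.14, and 0.090 without atg2-4 library 2. Among those higher in lon2-8 were the vegetative storage genes VSP1 (1.19) and VSP2 (0.88) and the catabolic gene CYP94B3 (1.04), while LOX4 was higher in atg2-4 (−0.73) and JAZ1 was not called (−0.078, adjusted p = 0.149).

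In the ER unfolded protein response 11 of 16 were higher in lon2-8 and 4 in atg2-4 (93.8% called, median 0.20), with the chaperone genes BIP2 (0.32), whose reads may be shared with BIP1, and PDIL1-1 (0.34) on the lon2-8 side. The stress transcription factor genes BZIP28 (−0.52) and BZIP60 (−0.47) were on the atg2-4 side, together with CRT3 (−0.64) and BIP3 (−0.38). The summed level of the list was 752 to 772 FPKM in lon2-8 and 666 to 685 in atg2-4, both below Col-0 at 803 to 824. Of 38 proteasome genes 6 were higher in lon2-8 and 4 in atg2-4 (26.3%, below the share of all genes), none beyond 0.3 in size, and centring the libraries gave 13 and 2. Leaving out atg2-4 library 1 gave 5 and 6, and leaving out lon2-8 library 1 or atg2-4 library 2 or 3 left 2 higher in atg2-4. Of 9 heat shock genes 5 were higher in lon2-8 and 1 in atg2-4 (66.7% called, median 0.15), but only 2 were higher in lon2-8 without lon2-8 library 3, and 3 without lon2-8 library 2 or atg2-4 library 2 or 3. None was higher in atg2-4 without lon2-8 library 2 or atg2-4 library 1 or 3. Of 13 hypoxia genes 4 were higher in each mutant (61.5% called, against 47.1% of all genes tested; median −0.057), with 2 left on the atg2-4 side without lon2-8 library 2 or atg2-4 library 3. These included the oxygen sensor gene PCO1, higher in lon2-8 (0.79), and the haemoglobin gene HB1 and ADH1, higher in atg2-4 (−0.53 and −0.74).

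Wild-type levels show on which side each difference lay. A Col-0 mean was counted as near a mutant when it lay past 0.75 of the way to it from the other mutant on the log2 scale. These are levels only, since a comparison of either mutant with Col-0 would share libraries with the other. Of the 645 genes at least 2-fold higher in atg2-4, the Col-0 mean lay near lon2-8 or beyond it in 531, in the middle in 107 and near atg2-4 in 7. Of the 163 at least 2-fold higher in lon2-8, it lay near atg2-4 in 19, in the middle in 70 and near lon2-8 in 74. All 3 Col-0 libraries lay strictly between the libraries of the mutants in 268 of the 808 genes, 94 of them higher in lon2-8 and 174 higher in atg2-4. The genes below were chosen for that order, so their levels are a description.

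Among the genes ranked for a Col-0 level between the mutants, with lon2-8 high, were FER1, APX1, the cysteine protease gene CP1, MSRB6 of methionine sulfoxide repair, AT2G36885, AT3G20340, AT5G23840 and the TRAF-like gene AT5G26280. CP1 was at 39.4, 40.6 and 35.96 FPKM in lon2-8, 9.79, 9.47 and 9.39 in Col-0 and 2.91, 4.96 and 4.07 in atg2-4. AT5G26280 was at 219, 232 and 220.01 FPKM in lon2-8, with Col-0 at 99.4, 103 and 108 and atg2-4 at 63.2, 63.97 and 63.2. MSRB6 ran from 29.6, 29.6 and 27.9 FPKM in lon2-8 through 16.2, 17.3 and 16.9 in Col-0 to 7.24, 6.76 and 9.08 in atg2-4. The ranges of the 3 genotypes did not overlap in these genes, by the way they were chosen. In the other direction stood the immune genes ACD6, PCC1 and WRKY70, the defensin-like gene AT1G13609, the iron regulator BHLH100, AT5G24210, AT5G42530 and AT2G06355. WRKY70, a transcription factor between salicylic acid and jasmonate signalling, was at 3.06, 2.56 and 2.33 FPKM in lon2-8, 6.67, 6.46 and 5.77 in Col-0 and 26.9, 26.8 and 25.9 in atg2-4. ACD6, a membrane protein gene that promotes salicylic acid signalling, was at 0.46, 0.356 and 0.509 FPKM in lon2-8, with Col-0 at 3.32, 2.58 and 2.94 and atg2-4 at 8.54, 8.5 and 8.85. AT5G42530, without a named function, covered the widest range in FPKM, with 49.9, 53.6 and 55.1 in lon2-8, 116, 128 and 111 in Col-0 and 622, 639 and 611 in atg2-4. The double mutant was on the atg2-4 side of Col-0 for WRKY70 (16.6 ± 0.52 FPKM), ACD6 (5.96 ± 0.52), CP1 (7.27 ± 1.1) and APX1 (78.8 ± 2.7).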

How the data were processed

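RNA of Arabidopsis seedlings was measured, and the values deposited by the authors are FPKM of 26093 genes in 12 libraries. The submitters' processing notes name Salmon 0.8.2, STAR 2.5.1a, featureCounts 1.4.6-p5, Subread, limma, edgeR and bcl2fastq. Neither their roles nor the build or strand setting is given in the sources used here. Libraries were poly-A selected, per the labels' protocols. Columns were grouped by the genotype in their names.

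Genes reaching 1 FPKM in 3 or more libraries were kept, 20662 in number. A linear model of log2(FPKM + 1) with a mean per genotype was fitted to the 12 libraries (limma 3.58.1, R 4.3.3). The contrast lon2-8 minus atg2-4 was moderated with a trend, and its two-sided p-values were adjusted over these genes by the Benjamini-Hochberg method. The threshold was 0.05. The script was tested on simulated data with few changed genes and no shift between libraries. That run does not bear on the many small differences called here. The series design calls the 3 libraries of a genotype biological replicates. Replicates differed by 1.91 to 2.52 times counting noise (mean chi-square per degree of freedom). This used the 20385 to 20560 genes per genotype that had enough fragments. The recovered fragments were whole within 0.01 for 26093 of 26093 genes. FPKM was not turned into counts for a test. Precision is limited by 3 libraries per group.

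Members and 27 pathway and 5 marker lists were chosen with earlier results of these data known. Of 637 list symbols 561 were matched to RefSeq names of assembly TAIR10.1, 40 of them through a hand-written alias, and 76 were left out. Named were LON2, ATG2, ICL and MLS, the 15 largest called differences in each direction (groups not overlapping, at least 5 FPKM in the higher group), 8 genes in each direction with all Col-0 libraries between the mutants, and, per list, members of small adjusted p with some that did not pass; further list members are given beside them for their role. The lists hold iron, copper, redox, peroxisome, protease, autophagy, immune, hormone, nutrient, photosynthesis, light, senescence, secondary metabolism, folding, proteasome and hypoxia genes. No coordinates or sequences are given. Python 3.11.15 (pandas 2.3.3, numpy 2.4.6, matplotlib 3.10.9) made the tables and plots.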

Additional observations from a re-analysis of the deposited data

How the results depend on the processing

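The contrast was recomputed with only the 6 single-mutant libraries, another pseudocount, other filters, centred libraries, no trend, a replicate block and each of the 6 libraries left out. Between 7895 and 10100 genes were called under these settings, against 9732. With a pseudocount of 0.1 the 2-fold count was 1254 (main 808), 339 of them higher in lon2-8 (main 163), since a smaller pseudocount widens differences of low genes. The share of called genes higher in lon2-8 passed from 46.7% to 58.1% when libraries were centred on their median. Leaving out 1 library gave 8740 to 9064 called genes, 805 to 835 at 2-fold, and 45.1 to 47.7% higher in lon2-8. Gene by gene, 188 genes were recomputed. They were LON2, ATG2, ICL, MLS, the genes named by size or Col-0 level, and the called members of smallest adjusted p per list. Of their 2430 recomputed values, 2397 kept direction and side of the threshold, 33 lost the call and none changed direction. Nearly all these genes were picked for a small adjusted p in the main fit, so this stability is partly a result of the choice. The losses in the set were in PEX11D, DEG15, HSP18.2, DREB2A, HSP101, EXPA7, COBL9 and RBCS1A. Other list members given in the text, such as CKX4, were outside it. Equal replicate numbers did not pair the libraries (r of deviations 0.032, −0.018 and −0.031 for the 3 equal-numbered pairs), and the replicate block gave 9620 called genes and 809 at 2-fold. Small differences are at the limit of 3 libraries per group and depend on the scaling between libraries.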

Other observations

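Some genes outside the lists differed as neighbours on a chromosome. They were chosen after their values were seen and carry no test of clustering. The defensin-like genes LCR85, AT4G22212 and AT4G22217 were all higher in lon2-8 than in atg2-4, at 7.76, 91.3 and 4.0 FPKM against 0.323, 33.99 and 0.815 (2.76 ± 0.19, 1.4 ± 0.060 and 1.44 ± 0.20 log2). The lipid transfer genes AT5G46890 and AT5G46900, which are among the 20 tested genes nearest LON2, were at 163 ± 8.6 and 175 ± 19.8 FPKM in lon2-8 and at 51.7 ± 12 and 45.6 ± 5.5 in atg2-4. In Col-0 they were at 112 ± 13 and 119 ± 19.7 FPKM. The uncharacterised genes AT1G53610, AT1G53620 and AT1G53625 were all higher in atg2-4 (−5.08 ± 0.21, −3.92 ± 0.089 and −4.59 ± 0.12). Reads may be shared between similar neighbours.

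HEMA1, which encodes the enzyme that commits glutamate to chlorophyll and haem synthesis, was at 126, 127 and 129 FPKM in lon2-8 and at 37.8, 35.9 and 33.1 in atg2-4 (1.81 ± 0.041, adjusted p = 1.32e-12), and at 97.9, 96.9 and 99.1 in Col-0. It too was picked after its values were seen.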
